A study of Mus musculus with 6 samples.

Results

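The genes described here make cholesterol and fatty acids or regulate their making. They comprise 31 named genes, chosen by symbol, among the 23420 gene rows of the count files, and all 31 passed the filter on low counts that left 12257 genes for testing. By role, 16 are enzymes of sterol synthesis, 5 regulate or carry sterols, and 10 make, lengthen or desaturate fatty acids. RNA was sequenced from the lens transition zone of mouse embryos at E14.5. This is the band where epithelial cells leave the cell cycle and start to elongate into fibre cells. The 3 mutant libraries carried Le-Cre with the alleles Etv4-/-, Etv5 fl/fl and Etv1 fl/fl, null for the first gene and floxed for the others, and the 3 control libraries carried Le-Cre alone, all on a mixed strain background. Le-Cre, which all libraries share, makes Cre recombinase in the surface ectoderm and in the lens and other structures it forms, whereas the Etv4 null allele is carried by every cell. Etv1, Etv4 and Etv5 are the ETS factors of the Pea3 family, whose expression in the lens depends on FGF receptor signalling.

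Cholesterol is built from acetyl-CoA through mevalonate and squalene. The transcription factor SREBP2, encoded by Srebf2, drives the genes of that route, and SREBP1, encoded by Srebf1, drives mainly those of fatty acid synthesis. When membranes lack sterol, SCAP escorts the SREBP proteins out of the endoplasmic reticulum to be cut and released. When sterol is plentiful, INSIG proteins hold SCAP back. Fibre cells of the lens enlarge their membranes greatly as they elongate, and those membranes are unusually rich in cholesterol. Faults in lanosterol synthase, encoded by Lss, cause cataract in rats and in people.

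Promoters of these genes are shown first because SREBP proteins work at sterol regulatory elements together with NF-Y, which binds CCAAT boxes. Windows of 300 bases, 250 before and 50 after the start of each gene, came from RefSeq (GRCm38.p6), which matched 24 of the 31 genes. The letters TCACNCCAC (reverse GTGGNGTGA) are 1 spelling of a sterol regulatory element. They were found on either strand in 1 of the 24 windows (4.17%), against 1.44% of 27025 genes. Other spellings were not searched, so windows without these letters may still hold such an element. The letters CCAAT (reverse ATTGG) were found in 19 of the 24 (79.2%) and in 12 of 13 sterol enzymes (92.3%), against 41.1% of all genes. An ETS site with the letters CCGGAAGT (reverse ACTTCCGG) was found in 0 of the 24 windows, against 4.31% of all genes. These 27025 genes include ones that were not tested here, whereas the 31 genes all passed the filter on low counts. The windows printed are those of Hmgcs1 (chr13:119690101-119690400, plus strand), Cyp51 (chr5:4104648-4104947, minus strand) and Ebp (chrX:8193463-8193762, minus strand). Hmgcs1 is the gene whose window holds TCACNCCAC. Cyp51 and Ebp are sterol enzymes that were lower in every mutant library than in any control. Capitals mark only TCACNCCAC and the CCAAT boxes, read 5′ to 3′ on the strand of the gene. Hmgcs1 has 4 such boxes, Cyp51 has 1 and Ebp has 2, and no marked motif overlaps another.
Hmgcs1: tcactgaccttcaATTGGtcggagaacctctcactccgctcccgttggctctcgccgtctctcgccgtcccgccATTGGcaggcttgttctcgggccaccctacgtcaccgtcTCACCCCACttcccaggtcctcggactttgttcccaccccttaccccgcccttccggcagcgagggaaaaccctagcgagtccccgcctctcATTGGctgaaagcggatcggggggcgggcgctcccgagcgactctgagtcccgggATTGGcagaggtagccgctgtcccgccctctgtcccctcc
Cyp51: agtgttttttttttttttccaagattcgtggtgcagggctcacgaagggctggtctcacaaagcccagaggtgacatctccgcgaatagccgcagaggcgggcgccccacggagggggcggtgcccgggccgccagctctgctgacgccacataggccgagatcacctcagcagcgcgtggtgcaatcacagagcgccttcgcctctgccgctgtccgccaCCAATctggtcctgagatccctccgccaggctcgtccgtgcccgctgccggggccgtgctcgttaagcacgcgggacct
Ebp: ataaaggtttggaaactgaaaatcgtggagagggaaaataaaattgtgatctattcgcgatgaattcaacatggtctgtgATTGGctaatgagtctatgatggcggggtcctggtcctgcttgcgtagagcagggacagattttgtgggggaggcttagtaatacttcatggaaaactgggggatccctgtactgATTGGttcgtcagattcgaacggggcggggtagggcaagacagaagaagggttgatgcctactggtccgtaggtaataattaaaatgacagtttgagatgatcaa

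Total counts lay between 13364742 and 17301168 per mutant library and between 16162956 and 17092433 per control library. Values below are normalised read counts (CPM), which bring all libraries to a common total and are scaled by the trimmed mean of M-values (TMM), given for replicates 1, 2 and 3. Etv1 had 29.0, 21.6 and 28.9 CPM in mutant libraries, against 45.4, 56.1 and 70.7 CPM in controls (log2 fold change -1.11 ± 0.21 (SE), adjusted p = 0.0319, edgeR). Etv5 had 116, 111 and 82.9 CPM in mutant libraries, against 245, 177 and 168 CPM in controls (-0.93 ± 0.19, adjusted p = 0.0503, edgeR). Both floxed genes were lower in every mutant library than in any control, while Etv4 was low in both groups, with 3.71 to 4.92 CPM in mutants and 2.13 to 3.21 CPM in controls. It was higher in every mutant library than in any control but not called (0.64 ± 0.36, adjusted p = 0.427, edgeR), so its counts do not show the null allele. Counts over a whole gene may include reads outside the deleted part, so these values check the labels only in part. Xist reached 711 counts in mutant library 1, where Ddx3y had 2, and Xist stood at 3 counts or fewer in the rest, so the libraries differ in the sex of the tissue.

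Markers of the lens were high in all libraries. Crystallins, the proteins that fibre cells make in bulk, took 21.7, 32.2 and 19.5% of the counts of mutant libraries and 37.6, 30.2 and 21.8% of those of controls, summed over 16 genes. The 12 fibre markers summed to 150036 to 277134 CPM in mutants and 147464 to 336232 CPM in controls, sums made up mostly by crystallins. All 11 fibre markers tested had a negative log2 fold change, with a median of -0.94, and 2 were called lower: Bfsp2, a protein of the fibre cytoskeleton (-4.88, adjusted p = 0.00464, edgeR), and Cdkn1c, a cell cycle inhibitor (-1.17, adjusted p = 0.0121, edgeR). The 6 markers of the lens epithelium summed to 2903 to 3645 CPM in mutants and 4401 to 4532 CPM in controls, and 5 of the 6 were negative with 0 called. That sum was made up mostly by Cryab and Sfrp1. Cryab, also one of the 16 crystallin genes, had 719 to 1980 CPM in mutants and 2277 to 2492 CPM in controls. Cryab and Pdpn did not overlap between the groups, while Pax6, Foxe3, Cdh1 and Sfrp1 did. Of all genes tested, 11.3% were lower in every mutant library than in any control, and 11.4% were higher. By edgeR 1.08% of all genes were called lower and 1.14% higher. The 6 markers of the surface ectoderm and cornea summed to 15.4 to 18.2 CPM in mutants and 27.4 to 30.4 CPM in controls, a sum made up mostly by Perp, which was called lower (-1.18, adjusted p = 0.0158, edgeR). The keratins Krt5 (2.001) and Krt15 (1.85) of that list, chosen after their values were seen, had positive log2 fold changes and were not called. A list of 12 genes of S phase summed to 1051 to 1903 CPM in mutants and 399.7 to 978 CPM in controls, and all 12 had a positive log2 fold change, with Mcm2 called higher. The epithelial, ectodermal and S phase sums did not overlap between the groups, and of the ectodermal markers 1 was at 0 in each mutant library and 1 to 2 in each control. The sums of the 6 lists for mesenchyme, vessels, red blood cells, macrophages, neural retina and pigment cells overlapped, at 1.40 to 269.8 CPM in mutants and 1.11 to 157 CPM in controls. Macrophage markers summed to 3.38 to 22.1 CPM in mutants and 1.11 to 7.55 CPM in controls, and all 4 tested were positive. Single markers of these lists without overlap, chosen after their values were seen, were Csf1r and Twist1 (higher) and Foxc1 and Sox2 (lower). None of them was called. In bulk tissue fewer cells of a type and less RNA per cell cannot be told apart, and the part of these markers in the results below was not tested.

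In mutant transition zones none of the 31 sterol and fatty acid genes was called against controls, though most had a negative log2 fold change. By edgeR's quasi-likelihood test 0 genes rose and 0 fell at an adjusted p under 0.05, and the adjusted p lay between 0.167 for Ebp and 0.945 for Mvd. Of all 12257 genes tested, 2.22% were called in either direction, 1.14% higher and 1.08% lower. Before adjustment 7 of the 31 had a p under 0.05, and all 7 were lower in the mutant libraries (Pmvk, Sqle, Cyp51, Ebp, Tm7sf2, Insig1 and Srebf1), where 8.27% of all genes were lower and 7.92% higher at that level. This count rested on single libraries: it was 2 of 31 without control library 1, where 6.35% of all genes were lower, 2 without mutant library 1 (6.28% of all genes), and 9 without mutant library 2 (11.1%). By DESeq2 1 of the 31 was called lower, Insig1, where 3.43% of all genes were, and by limma voom with quality weights 1, Tm7sf2, where 3.36% were. The log2 fold change was negative for 24 of the 31 genes, against 49.8% of all genes, and its median was -0.23, against 0.002 over all genes. With each library left out in turn, 19 to 25 of the 31 were negative.

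In 8 genes every mutant library lay below every control (Pmvk, Sqle, Cyp51, Ebp, Tm7sf2, Srebf1, Stard4 and Fads1), where 11.3% of all genes did so. In 1 gene, Acly, every mutant library lay above every control, where 11.4% of all genes did so. The other 22 overlapped. The 3 role groups had different medians: -0.39 for the 5 regulators and carriers, -0.29 for the 16 sterol enzymes and -0.14 for the 10 fatty acid enzymes. These medians were not tested against each other. Their negative members numbered 5 of 5, 13 of 16 and 6 of 10 in that order.

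**Figure D1:**
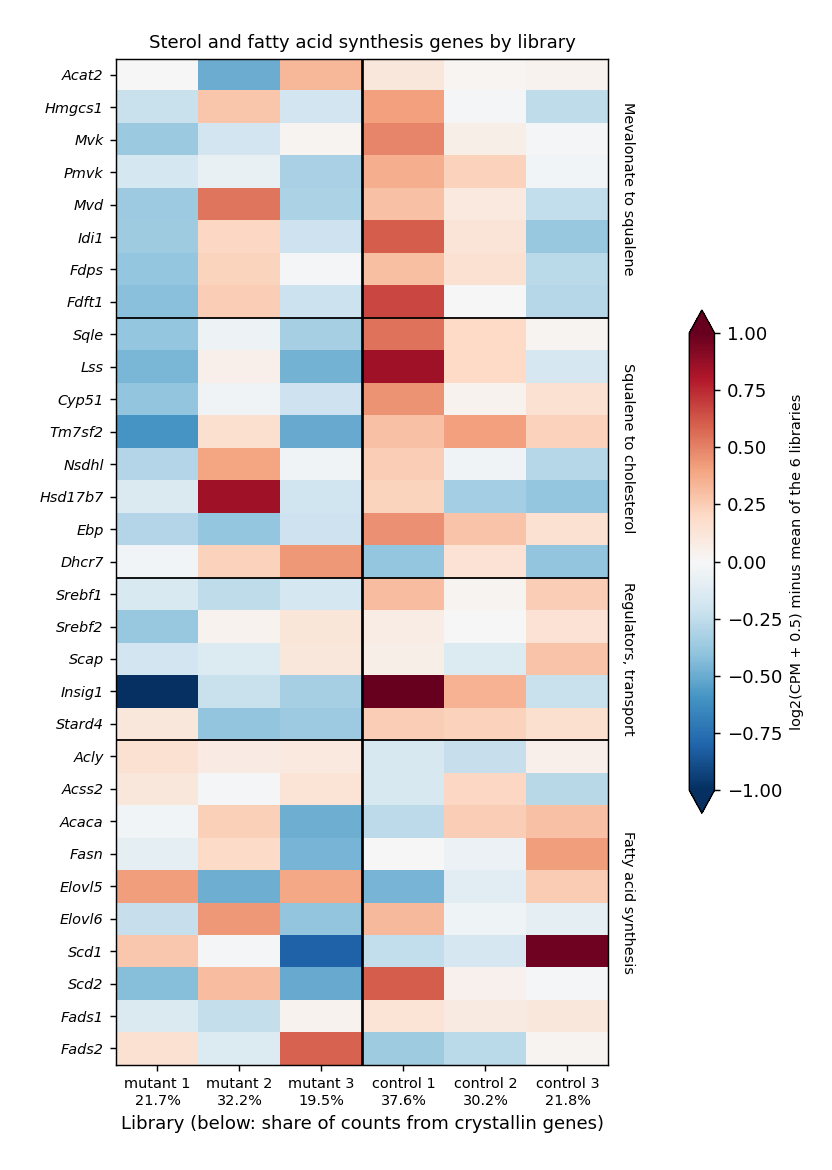
Expression of the 31 genes in each library, as the difference in log2 CPM from the mean of all 6 libraries, with genes in rows by role and mutant libraries left of controls. Control library 1 stands highest for most sterol enzymes, and mutant library 2 is above mutant libraries 1 and 3 for many of them.

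**Figure D2:**
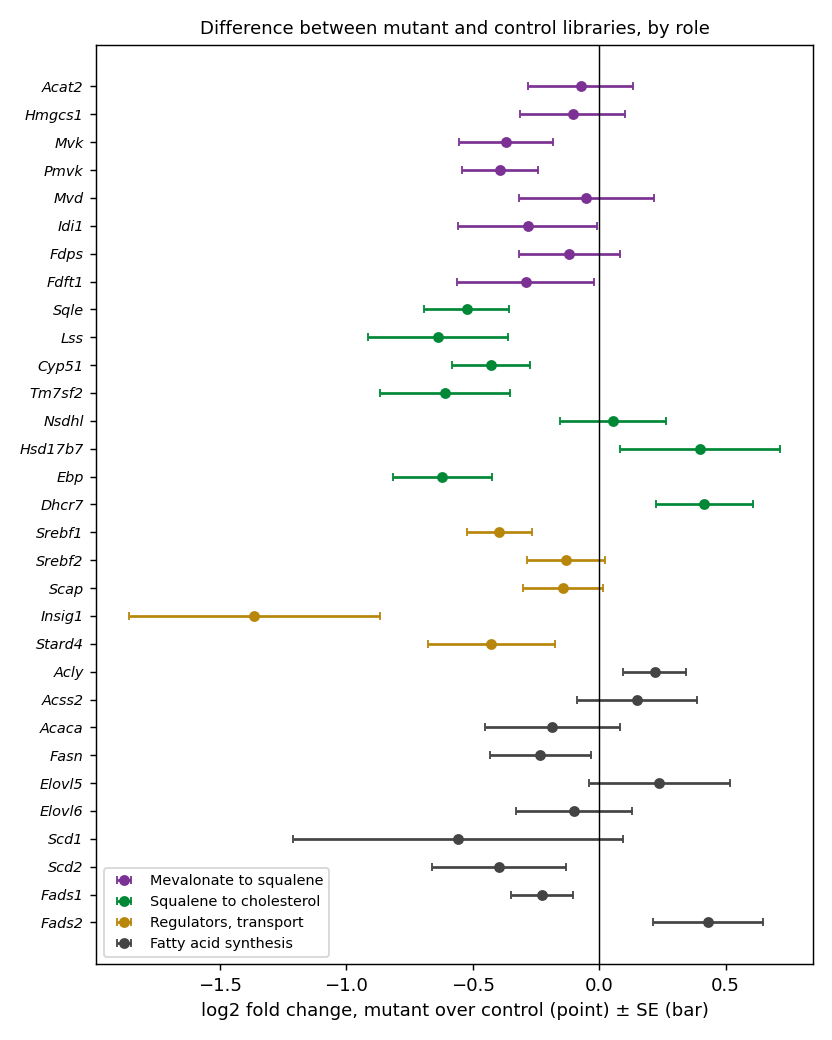
Log2 fold change of each of the 31 genes, mutant over control, on the horizontal axis, with bars for the SE and colours for the roles. Of the 31 points, 24 lie below 0, and no gene was called at an adjusted p under 0.05.

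The first enzymes of the sterol route, which carry acetyl-CoA to squalene, were close in the groups. All 8 had a negative log2 fold change, with a median of -0.20, and none was called. Hmgcs1, which makes HMG-CoA, had 250.4, 355 and 256 CPM in mutant libraries, against 389, 289.7 and 246 CPM in controls. Its highest mutant and its highest control library are those with the largest crystallin share of each group, and the groups overlap (-0.10 ± 0.21 (SE), 95% interval -0.58 to 0.37, adjusted p = 0.851, edgeR). Fdps, which makes farnesyl diphosphate, had 129, 197 and 168 CPM in mutant libraries, against 208, 188 and 140.3 CPM in controls. Again mutant library 2 lay above its group and control library 1 above its own (-0.12 ± 0.20, 95% interval -0.57 to 0.34, adjusted p = 0.819, edgeR).

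The kinases of mevalonate, Mvk and Pmvk, had lower means in mutants than in controls, and neither was called. Mvk, mevalonate kinase, had 33.3, 37.9 and 44.2 CPM in mutant libraries, against 60.8, 45.3 and 43.0 CPM in controls (-0.37 ± 0.19, adjusted p = 0.371, edgeR), and mutant library 3 lay above control library 3. Pmvk, which adds the next phosphate, had 45.5, 48.8 and 41.1 CPM in mutant libraries, against 66.4, 60.6 and 50.6 CPM in controls. Its means were 45.2 ± 3.87 CPM in mutants and 59.2 ± 7.98 CPM in controls (SD, n = 3 each), without overlap (-0.39 ± 0.15, adjusted p = 0.249, edgeR). The other 4 genes of this stretch overlapped. They are Acat2, which joins 2 acetyl-CoA units, Mvd, which decarboxylates mevalonate diphosphate, Idi1, which isomerises isopentenyl diphosphate, and Fdft1, squalene synthase. Their log2 fold changes lay between -0.29 for Fdft1 and -0.05 for Mvd. Exons of Fdft1 share 774 bases with those of Ctsb on the opposite strand, and since the library kit does not mark strand, reads of the 2 genes may be mixed. Ctsb itself had similar levels in both groups (0.02 ± 0.14, adjusted p = 0.952, edgeR). Acat2 has a near copy, Acat3, with 4 counts or fewer in every library.

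From squalene to cholesterol 5 of 8 genes had a negative log2 fold change and 3 a positive one, with a median of -0.47, and none was called. In 4 of the 8 every mutant library lay below every control, where 11.3% of all genes did so. Sqle, squalene epoxidase, which is a control point of the route, had 121, 153 and 126 CPM in mutant libraries, against 231, 181 and 161 CPM in controls. The highest mutant library lay below the lowest control, with means of 133 ± 17.1 CPM in mutants and 191 ± 35.7 CPM in controls (SD, n = 3 each; -0.52 ± 0.17, 95% interval -0.91 to -0.14, adjusted p = 0.173, edgeR). Lss, which closes the rings to form lanosterol, had 33.5, 47.7 and 33.0 CPM in mutant libraries, against 83.6, 53.0 and 41.0 CPM in controls. Here mutant library 2 lay above control library 3, and control library 1 stood far above its group (-0.64 ± 0.28, adjusted p = 0.309, edgeR). Without control library 1 the log2 fold change was -0.31, and with each library left out in turn it lay between -0.84 and -0.31.

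Cyp51, which removes the first methyl group of lanosterol and whose promoter is printed above, had 116, 148 and 132 CPM in mutant libraries, against 207, 156 and 169 CPM in controls. Its groups came close but did not overlap, with means of 132 ± 16.3 CPM in mutants and 177 ± 26.8 CPM in controls (SD, n = 3 each; -0.43 ± 0.16, adjusted p = 0.224, edgeR). Its exons share 166 bases with Akap9 on the opposite strand, and Akap9 was not called (-0.33 ± 0.21, adjusted p = 0.488, edgeR). Ebp, the sterol isomerase whose promoter is also printed, had 11.1, 10.4 and 11.8 CPM in mutant libraries, against 19.1, 16.9 and 15.4 CPM in controls. Within each group its libraries differed little, with means of 11.1 ± 0.719 CPM in mutants and 17.1 ± 1.86 CPM in controls (SD, n = 3 each). Ebp had the lowest adjusted p of the 31 genes (-0.62 ± 0.20, 95% interval -1.07 to -0.17, adjusted p = 0.167, edgeR). Tm7sf2, a sterol reductase, had 8.48, 14.6 and 8.99 CPM in mutant libraries, against 15.996, 17.4 and 15.3 CPM in controls. Mutant library 2 lay close under the controls and the other 2 mutant libraries well below them (-0.61 ± 0.26, adjusted p = 0.291, edgeR).

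The genes of this stretch with a positive log2 fold change were Dhcr7, Hsd17b7 and Nsdhl. Dhcr7, the reductase that turns 7-dehydrocholesterol into cholesterol, had 75.2, 90.1 and 104 CPM in mutant libraries, against 58.6, 84.9 and 58.4 CPM in controls. Its control library 2 lay within the mutant values, so the groups overlapped (0.42 ± 0.19, 95% interval -0.02 to 0.85, adjusted p = 0.329, edgeR). Hsd17b7 and Nsdhl, which take part in the removal of methyl groups from the ring, also overlapped. Nsdhl was close to 0 (0.06 ± 0.21, adjusted p = 0.926, edgeR). Hsd17b7, chosen after its values were seen, had 32.5, 65.1 and 31.3 CPM in mutant libraries, against 41.9, 28.4 and 27.3 CPM in controls (0.40 ± 0.32, adjusted p = 0.579, edgeR). Without mutant library 2, the highest, its log2 fold change was -0.03.

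**Figure D3:**
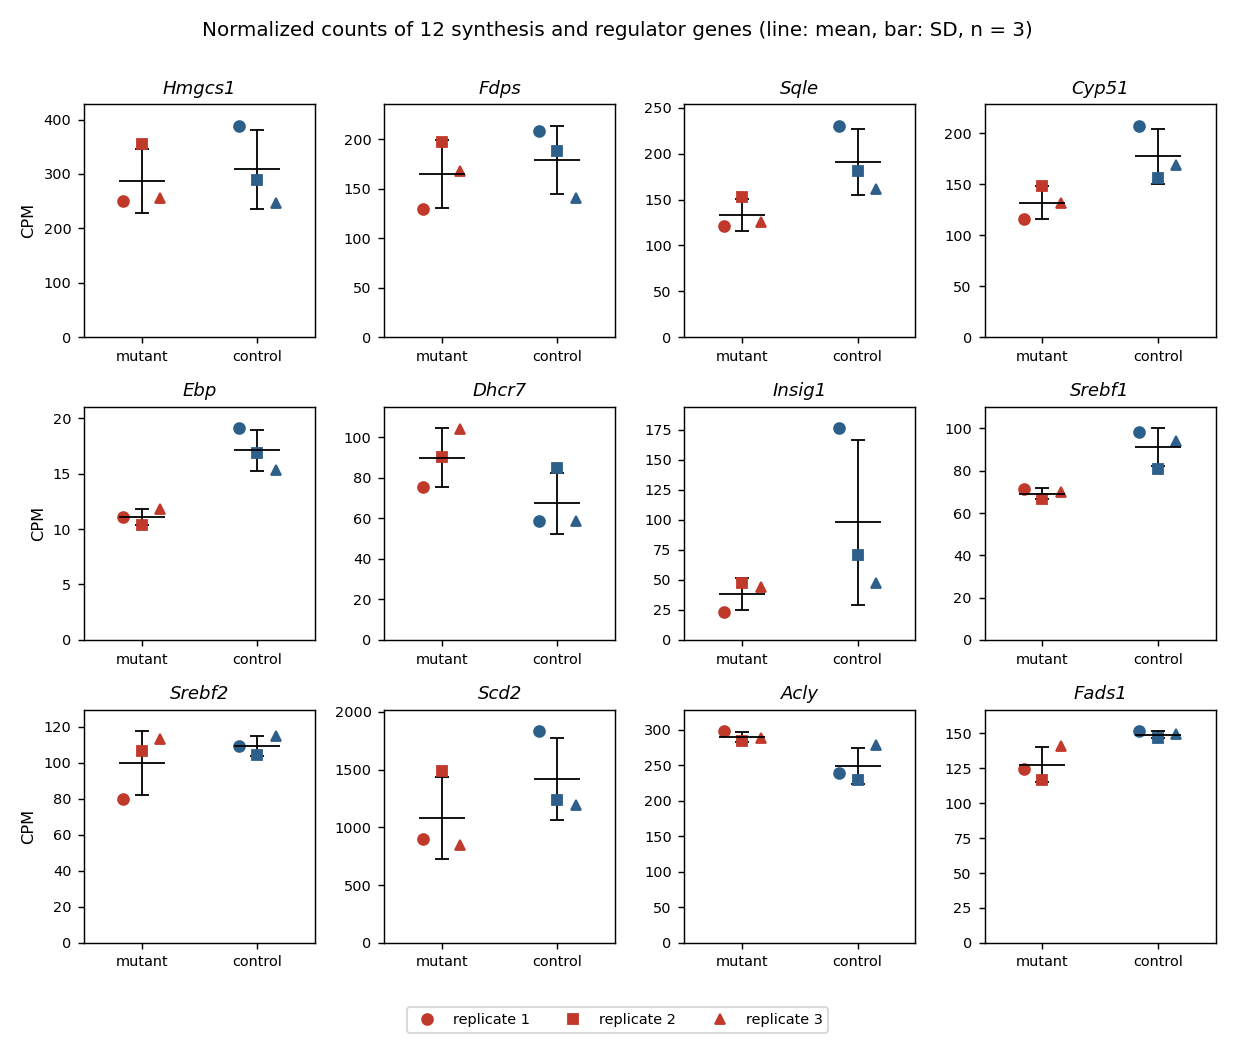
CPM of 12 of the genes in every library, 1 symbol a library, with mutant libraries left of controls, a line at each group's mean and a bar for the SD (n = 3). Sqle, Cyp51, Ebp, Srebf1 and Fads1 are lower in every mutant library than in any control, and Acly is higher. Of all genes tested, 11.3% were lower in this way and 11.4% higher. Insig1 shows 1 control library far above all the rest.

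Among the regulators, Insig1 had the most negative log2 fold change of the 31 genes, with a wide spread among controls. Insig1, which holds SCAP in the endoplasmic reticulum and is itself induced by SREBP, had 23.2, 47.4 and 43.8 CPM in mutant libraries, against 176, 70.6 and 47.3 CPM in controls. Control library 1 was far above all others, control library 3 was level with mutant library 2, and the means were 38.1 ± 13.1 CPM in mutants and 97.95 ± 68.5 CPM in controls (SD, n = 3 each). The log2 fold change was -1.36 ± 0.50 (95% interval -2.52 to -0.21, adjusted p = 0.237, edgeR). Without control library 1 it was -0.63 (adjusted p = 0.476, edgeR). By DESeq2 on all libraries it was -1.37 with an adjusted p of 0.0295, and over all alternatives the adjusted p lay between 0.0295 and 0.476. The authors' deposited table gives -1.28 with an adjusted p of 0.0278, and Insig1 is the 1 gene of the 31 under 0.05 there, against 833 of 13644 genes (6.11%).

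Srebf1, which encodes SREBP1, was steadier. It had 71.3, 66.5 and 69.9 CPM in mutant libraries, against 98.1, 80.9 and 93.9 CPM in controls. The mutant libraries lay close together below all controls, at 69.2 ± 2.501 CPM in mutants and 91.0 ± 8.99 CPM in controls (SD, n = 3 each; -0.39 ± 0.13, 95% interval -0.68 to -0.10, adjusted p = 0.174, edgeR). Its exons share 109 bases with Rai1 on the opposite strand. Stard4, a carrier of cholesterol in the cytosol, had 9.24, 6.35 and 6.49 CPM in mutant libraries, against 10.2, 10.02 and 9.53 CPM in controls. Its groups did not overlap, though mutant library 1 lay close to control library 3 (-0.43 ± 0.25, adjusted p = 0.451, edgeR).

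Srebf2 and Scap overlapped between the groups. Srebf2, which encodes SREBP2, had 79.8, 106 and 113 CPM in mutant libraries, against 109, 104 and 115 CPM in controls. Only mutant library 1 stood below the controls (-0.13 ± 0.15, 95% interval -0.48 to 0.22, adjusted p = 0.729, edgeR). Scap had 52.5, 54.5 and 65.0 CPM in mutant libraries, against 62.4, 54.4 and 73.0 CPM in controls (-0.14 ± 0.16, 95% interval -0.50 to 0.22, adjusted p = 0.708, edgeR). The intervals of both genes allow changes in either direction.

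The enzymes that make palmitate gave no shared direction. Acly, which splits citrate into cytosolic acetyl-CoA, had 298, 284 and 288 CPM in mutant libraries, against 239.8, 229 and 279 CPM in controls. Every mutant library lay above every control, by a small margin over control library 3, at 290.1 ± 6.97 CPM in mutants and 249 ± 25.97 CPM in controls (SD, n = 3 each; 0.22 ± 0.13, adjusted p = 0.436, edgeR). Acss2, which makes acetyl-CoA from acetate, had 10.3, 9.40 and 10.5 CPM in mutant libraries, against 8.45, 11.1 and 7.76 CPM in controls (0.15 ± 0.24, adjusted p = 0.807, edgeR). Acaca, acetyl-CoA carboxylase, had 13.0, 15.8 and 9.32 CPM in mutant libraries, against 10.99, 15.8 and 16.4 CPM in controls (-0.18 ± 0.27, adjusted p = 0.785, edgeR). Both overlap, and Acaca was lowest in mutant library 3. Fasn, fatty acid synthase, had 139, 169.7 and 108 CPM in mutant libraries, against 148, 142 and 199 CPM in controls. Mutant library 2 lay above 2 of the 3 controls (-0.23 ± 0.20, 95% interval -0.69 to 0.22, adjusted p = 0.61, edgeR).

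The desaturases and elongases were not called, and most overlapped between the groups. Scd2, the desaturase that introduces the first double bond, had 896, 1490.1 and 849.9 CPM in mutant libraries, against 1830.2, 1238 and 1189 CPM in controls. It was by CPM the most abundant of the 31 genes, and mutant library 2 lay above 2 of the 3 controls (-0.40 ± 0.27, 95% interval -1.004 to 0.21, adjusted p = 0.511, edgeR). Its close relative Scd1 had only 36, 17 and 11 counts in mutant libraries and 15, 20 and 59 counts in controls, which is 1.83, 1.40 and 0.600 CPM in mutants and 1.12, 1.21 and 3.27 CPM in controls. Reads shared by such near copies could be split between them in the authors' counting (Scd1: -0.56 ± 0.65, adjusted p = 0.728, edgeR). Elovl6, which lengthens palmitate, had 85.0, 135 and 75.7 CPM in mutant libraries, against 125, 97.0 and 94.0 CPM in controls (-0.10 ± 0.23, adjusted p = 0.874, edgeR). Mutant library 2 was the highest of the mutants, as for Scd2, and Elovl5, which lengthens polyunsaturated chains, was lowest in that library, at 28.4 CPM, and overlapped too.

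The 2 desaturases of polyunsaturated fatty acids lay on either side of 0. Fads1 had 124, 117 and 141 CPM in mutant libraries, against 151, 147 and 149 CPM in controls. Controls differed little and all lay above the mutants (-0.23 ± 0.12, adjusted p = 0.41, edgeR). Fads2 had 37.9, 31.01 and 51.4 CPM in mutant libraries, against 26.5, 28.1 and 34.8 CPM in controls (0.43 ± 0.22, 95% interval -0.06 to 0.92, adjusted p = 0.373, edgeR). Its mutant library 2 lay below control library 3. The difference between the 2 genes was not tested.

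Pairs of related genes can be set against each other only per length of exon, as CPM per kilobase of merged exons (GENCODE M21). On that scale of levels Scd2 stood at 198 ± 65.5 in mutants and 260.2 ± 65.4 in controls, and Scd1 at 0.264 ± 0.129 in mutants and 0.387 ± 0.251 in controls (SD, n = 3 each). Scd2 was thus the main stearoyl-CoA desaturase RNA of all libraries. Srebf1 stood at 16.1 ± 0.582 in mutants and 21.2 ± 2.09 in controls, and Srebf2 at 19.7 ± 3.47 in mutants and 21.5 ± 1.05 in controls, so the 2 SREBP genes had like levels in controls. Insig1 stood at 14.1 ± 4.84 in mutants and 36.3 ± 25.4 in controls, and its relative Insig2 at 18.9 ± 2.005 in mutants and 19.7 ± 1.93 in controls.

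Within both groups, the sterol enzymes tended to be highest in the library with the largest crystallin share. That is mutant library 2 (32.2% of counts) and control library 1 (37.6%). Of the 16 sterol enzymes 11 were highest in that library of each group (68.8%), as were 1 of the 5 regulators and 2 of the 10 fatty acid enzymes (20%), where 21.5% of all genes were. The sterol enzymes summed to 1139, 1593 and 1281 CPM in mutant libraries, against 1873, 1483 and 1267 CPM in controls. The fatty acid enzymes summed to 1659, 2282 and 1587 CPM in mutant libraries, against 2570.3, 1947 and 2019.8 CPM in controls, and Scd2 made up most of each sum. Part of this order rests on the scaling: by CPM without TMM factors 6 of the 16 sterol enzymes (37.5%) were highest in those libraries, against 6.1% of all genes. As a plain share of all counts, sterol enzymes took 0.130, 0.145 and 0.143% in mutant libraries and 0.150, 0.143 and 0.141% in controls. Of the counts outside crystallins they took 0.166, 0.213 and 0.178% in mutant libraries and 0.241, 0.205 and 0.181% in controls.

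**Figure D4:**
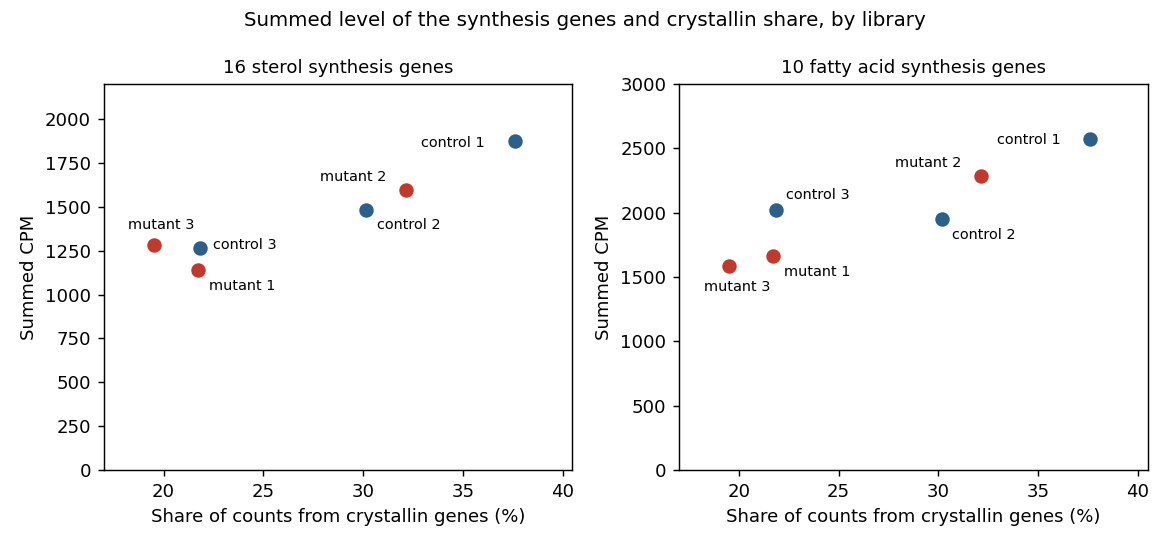
Summed CPM of the sterol enzymes and of the fatty acid enzymes (vertical axes) against the percentage of counts from 16 crystallin genes (horizontal axis) in the 6 libraries, mutant and control in different colours. The library with the most crystallin counts has the largest sterol sum in each group, at 1593 CPM for mutant library 2 and 1873 CPM for control library 1.

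With the crystallin share as a covariate in the fit, 19 of the 31 log2 fold changes were negative, the median was -0.18, and again 0 genes were called. Of the 8 sterol enzymes of the first stretch, 5 then lay on the other side of 0, such as Hmgcs1 at 0.13 and Fdps at 0.07. Mvk (-0.27), Pmvk (-0.27) and Acat2 (-0.22) remained negative. Ebp was -0.58 (adjusted p = 0.172, edgeR) and Srebf1 -0.40 (adjusted p = 0.125, edgeR), near their values without the covariate. Lss was -0.29, Scd2 -0.15 and Insig1 -0.70, each less negative than without it. The crystallin share averaged 24.5 ± 6.76% in mutants and 29.9 ± 7.90% in controls (SD, n = 3 each), and the part of this difference in the results was not tested.

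Genes of the same pathways outside the 31 were taken from lists. Of 9 tested sterol branch genes 1 fell and 0 rose, where 1.08% of all genes fell and 1.14% rose, and their median log2 fold change was -0.08. Aacs, which activates acetoacetate for sterol and fatty acid synthesis, had 52.0, 48.7 and 58.1 CPM in mutant libraries, against 103, 81.6 and 82.6 CPM in controls. It fell without overlap (-0.75 ± 0.15, adjusted p = 0.0386, edgeR). The call was lost without any 1 library, with an adjusted p of 0.0585 to 0.169, while the log2 fold change stayed between -0.82 and -0.63. Sc4mol, of the same list but chosen after its values were seen, oxidises the methyl groups of the ring. It had 128, 127 and 149.7 CPM in mutant libraries, against 226, 190.5 and 158 CPM in controls, without overlap and not called (-0.50 ± 0.16, adjusted p = 0.165, edgeR).

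Of 18 tested genes of sterol uptake, efflux and regulation, 2 fell and 0 rose, beside 1.08% of all genes that fell and 1.14% that rose, and the median was 0.07. Osbp, a sterol exchanger between the endoplasmic reticulum and the Golgi, had 58.1, 52.7 and 43.3 CPM in mutant libraries, against 106, 83.5 and 98.4 CPM in controls. It fell without overlap (-0.90 ± 0.16, adjusted p = 0.0255, edgeR), and left-out libraries gave -0.997 to -0.79, with the call kept without mutant library 2 (adjusted p = 0.0337, edgeR) and lost without each of the others. Mbtps2, the protease that makes the second cut of SREBP, had 10.0002, 11.3 and 10.5 CPM in mutant libraries, against 60.9, 61.9 and 19.6 CPM in controls. It fell (-2.16 ± 0.41, adjusted p = 0.0432, edgeR), with control library 3 much lower than the other controls. The call was kept without control library 3 (-2.54, adjusted p = 0.0017, edgeR) and lost without each other library. Exons of Mbtps2 share 2867 bases with Yy2 on the same strand, so its reads cannot be told apart from those of Yy2 over that length. Yy2 had 6.70, 6.10 and 5.89 CPM in mutant libraries, against 9.34, 11.8 and 10.7 CPM in controls (-0.77 ± 0.24, adjusted p = 0.157, edgeR). Yy2, Insig2 and the other genes named for shared exons or as relatives were chosen after their values were seen.

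Of 26 tested fatty acid genes outside the 31, 0 rose and 0 fell by edgeR, 1 was called lower by DESeq2 (3.43% of all genes) and 3 by limma voom (3.36% of all genes). Before adjustment 1 was higher and 4 were lower at a p under 0.05, where 7.92% of all genes were higher and 8.27% lower. Their median was -0.09. The gene higher before adjustment, Dgat2, chosen after its values were seen, was at 0.74 ± 0.30 (adjusted p = 0.272, edgeR). It had 29.3, 63.3 and 30.7 CPM in mutant libraries, against 26.5, 23.1 and 23.9 CPM in controls, without overlap. Me1, malic enzyme, which supplies NADPH, had 14.01, 10.8 and 15.97 CPM in mutant libraries, against 29.4, 24.7 and 24.2 CPM in controls. The groups were well apart (-0.94 ± 0.21, adjusted p = 0.0632, edgeR; 0.00401, DESeq2). Elovl1, which lengthens very long chains, was at -0.66 ± 0.20 (adjusted p = 0.157, edgeR), Ptplb, a dehydratase of the elongation cycle, at -0.54 ± 0.16 (adjusted p = 0.152, edgeR), and Thrsp, a regulator of lipogenesis, at -1.43 ± 0.48 (adjusted p = 0.187, edgeR). Of 12 tested genes of fatty acid oxidation 0 rose and 0 fell, 1 was higher before adjustment, and the median was 0.03. That gene, Acadvl, which oxidises very long chains, had 75.8, 84.0 and 87.2 CPM in mutant libraries, against 68.2, 66.5 and 59.3 CPM in controls (0.35 ± 0.13, adjusted p = 0.224, edgeR).

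**Figure D5:**
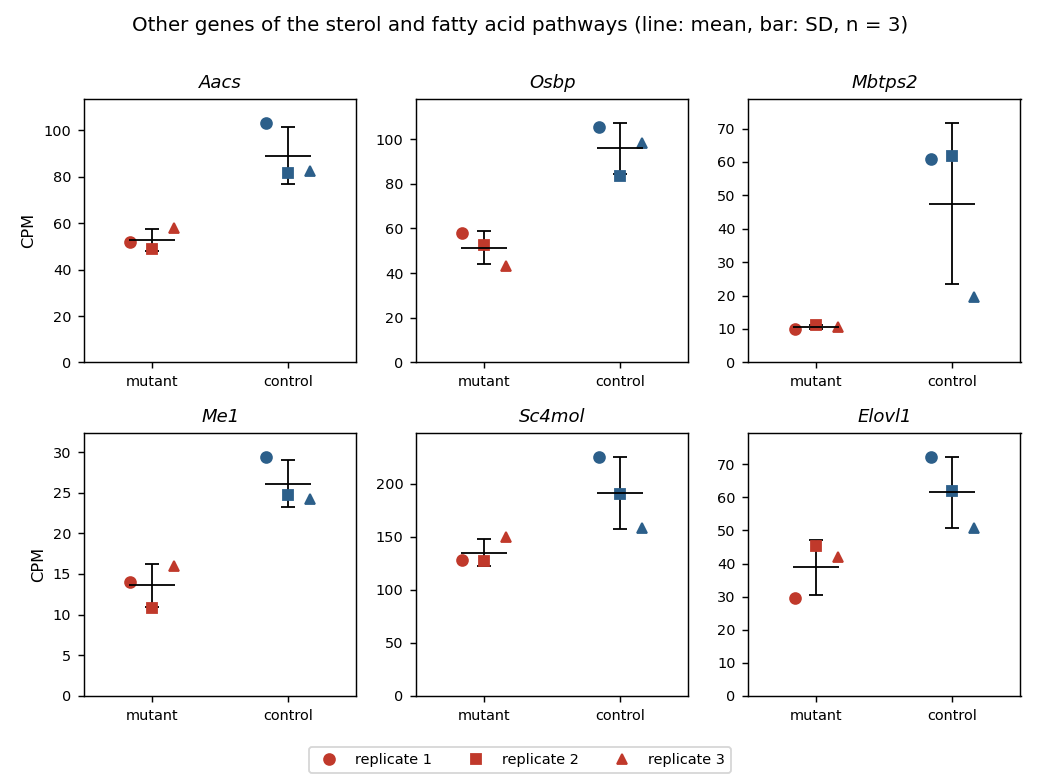
CPM in every library of 6 genes of the same pathways outside the 31, mutant libraries left of controls, with a line at each group's mean and a bar for the SD (n = 3). Aacs, Osbp and Mbtps2, the called ones, show every mutant library below every control, as do Me1, Sc4mol and Elovl1, which were not called by edgeR. Of all genes tested, 11.3% lay below in this way and 11.4% above. In the full lists 2 of 9 sterol branch genes and 3 of 18 of uptake, efflux and regulation lay below. Of the 26 fatty acid genes 4 lay below and 1 above.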

How the data were processed

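RNA from the lens transition zone was amplified with a SMART-seq v4 kit and made into Nextera XT libraries, per the labels' protocols; such libraries carry no molecular identifiers and do not mark strand. Tools in the submitters' processing notes are TopHat, Cufflinks, DESeq and bcl2fastq 1.8.4, with the build mm9, and no counter of reads is given in those sources. Per library and in a series table, the authors deposited counts of reads by gene symbol without normalization, and 0 counts differed between both. The authors' deposited table of their own comparison holds log2 fold changes with standard errors, p-values, a test score and a mean signal of normalized counts.

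Genes were filtered with filterByExpr (minimum count 10, minimum total 15), scaled by TMM and tested with edgeR 4.0.16 (robust quasi-likelihood, R 4.3.3), with Benjamini-Hochberg adjustment over 12257 genes and a threshold of 0.05. Standard errors were derived from the F statistic, and intervals are at 95%. DESeq2 1.42.0 and limma 3.58.1 served as alternatives, and the procedure was tested on simulated data. Labels do not say whether libraries came from separate embryos, so a p-value here measures only how these libraries vary. Libraries of a group differed beyond counting noise, with chi-square values of 28.1 to 137 for each degree of freedom. The genes, lists and tests were chosen with earlier results of these data known. Values in every library are given for the 10 genes of lowest p and for 20 genes set by role; from each outside list every called gene, or otherwise up to 4 of lowest p, is named, and others are said to be chosen after their values were seen. Some genes of these pathways are not reported here and are in no list. Exon lengths and overlaps came from GENCODE M21 (GRCm38), another build than the authors'.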

Additional observations from a re-analysis of the deposited data

How the results depend on the processing

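None of the 31 genes was called higher under any alternative. The count called lower was 0 except for 1 by DESeq2 (Insig1) and 1 by limma voom with quality weights (Tm7sf2, -0.85, adjusted p = 0.0438), and it was 0 when each library was left out. The median log2 fold change of the 31 lay between -0.37 and -0.15 when each library was left out. Other alternatives, which were DESeq2 size factors, normalization without crystallins, no filter, 5 CPM in 3 libraries, the block, the crystallin covariate, DESeq2 and voom, gave -0.26 to -0.18.

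Same-numbered libraries did not deviate together (correlations of -0.28, -0.15 and 0.22), so the numbers were not taken as pairs. With the replicate number as a block, 0 of the 31 genes were called, 0 sterol branch genes and 0 genes of uptake, efflux and regulation outside the 31 were called lower, and 68 of all genes were called higher and 54 lower, against 140 and 132 without it. All-gene calls were 367 higher and 431 lower with the covariate, 401 and 420 by DESeq2, 389 and 412 by voom, and 54 to 213 higher and 36 to 266 lower with a library left out.

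Among genes outside the 31, the covariate gave 1 fatty acid gene higher and 1 lower. DESeq2 gave 1 fatty acid gene lower. Voom gave 3 fatty acid genes and 1 gene of uptake, efflux and regulation lower, and no filter gave 1 of the last kind (Osbp). With a library left out, sterol branch calls were 0 lower, and those of uptake, efflux and regulation 0 to 1 lower and 0 to 1 higher. The log2 ratio of the summed share of counts, mutant over control, was -0.06 for sterol enzymes and -0.17 outside crystallins. For fatty acid enzymes it was -0.21 outside crystallins, and their share of all counts averaged 0.191% in mutants and 0.206% in controls.

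Signs turned in the covariate fit for Hmgcs1 (0.13), Mvd (0.19), Idi1 (0.047), Fdps (0.071), Fdft1 (0.033), Elovl5 (-0.10), Elovl6 (0.10), Sc5d (0.087) and Insig2 (0.023), and by voom for Nsdhl (-0.069). With a library left out, ranges crossed 0 for Hmgcs1 (-0.28 to 0.10), Mvd (-0.41 to 0.11), Fdps (-0.27 to 0.031), Fdft1 (-0.50 to 0.030), Elovl6 (-0.39 to 0.059), Sc5d (-0.23 to 0.059), Insig2 (-0.12 to 0.025), Nsdhl (-0.15 to 0.20), Scd1 (-0.92 to 0.12), Srebf2 (-0.23 to 0.0072), Hsd17b7 (-0.028 to 0.62) and Acat2 (-0.28 to 0.12). The causes were not tested. Scd1, at 11 to 59 counts, was not tested at 5 CPM, and low counts limit its precision. Scaling by plain CPM, added after seeing the data, left 6 of the 31 genes lower and 2 higher without overlap, against 7.2% of all genes lower and 12.2% higher.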
